A study of Macaca fascicularis with 7 samples.

Results

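The sirtuins are 7 genes, SIRT1 to SIRT7, that encode NAD-dependent enzymes which remove acetyl and other acyl groups from lysines. Their poly(A) RNA was counted in oocytes of the cynomolgus monkey (Macaca fascicularis). They were chosen by gene name, as the rows whose identifier equals one of these symbols, and 7 of 28161 usable gene rows matched. No measured value stands in that rule, but the family was put forward with results of these same comparisons known. The adjusted p-values given here therefore describe the fit and are not independent evidence. Oocytes of 3 kinds were compared. IVM MII oocytes are eggs at metaphase II that had matured in culture (3 libraries, labelled treated). IVO MII oocytes are eggs at the same stage that had matured in the animal (2 libraries, labelled control). GV oocytes still hold the germinal vesicle, the intact nucleus of the immature oocyte (2 libraries, labelled control). All 7 libraries are labelled wild type, and the labels name neither the age of the animals nor the number of oocytes or animals behind a library, so the p-values measure only a spread between libraries that may be technical. Where a library pools oocytes, which the labels do not say, fewer oocytes with a transcript and less of it per oocyte cannot be told apart.

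Sirtuins use NAD as a co-substrate, so their activity is tied to the NAD supply of the compartment in which they sit. SIRT1, SIRT6 and SIRT7 are mainly nuclear, SIRT2 is mainly cytosolic, and SIRT3, SIRT4 and SIRT5 are mitochondrial. In mouse oocytes Sirt2 has been linked to spindle organisation and Sirt1 and Sirt3 to protection from oxidative stress. A fully grown oocyte transcribes little, and during maturation it draws on stored mRNA, which is translated or degraded according to its poly(A) tail. In libraries primed on poly(A), a change of tail length and a change in the number of molecules cannot be told apart.

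The library totals ranged from 22901970 to 29245733 counts. Values are given as CPM, which are counts divided by a library size scaled with TMM (trimmed mean of M values). On that scale 1 count was worth 0.0302 to 0.0537 CPM. TMM enlarged the size of both GV libraries (times 1.423 for replicate 1, times 1.382 for replicate 2). It shrank that of every MII library, from times 0.7662 (IVM MII replicate 1) up to times 0.9848 (IVO MII replicate 2). All levels are thus relative to the scaled library, and so is every rise or fall given here. Whether total RNA per oocyte changed between GV and MII was not tested. The oocyte marker list summed to 9450 to 19100 CPM in IVM MII, 9160 to 11400 CPM in IVO MII and 12800 to 15000 CPM in GV, with 14 of 15 marker names found, each with counts in every library. The blood and immune list stayed at or under 3.67 CPM in every library. The cumulus and granulosa list summed to 101 to 251 CPM in IVM MII, 90.2 to 125 CPM in IVO MII and 19.3 to 22.5 CPM in GV, mostly from TNFAIP6, HAS2, GREM1 and FSHR, while AMH and PTX3 were at 0 counts throughout. The stroma, theca and endothelium list summed to 74 to 90.9 CPM in IVM MII, 92.3 to 128 CPM in IVO MII and 1090 to 1220 CPM in GV, where VWF alone averaged 1070 CPM, while COL3A1 and LUM were at 0 counts. Within the cumulus and granulosa list, TNFAIP6 averaged 107 CPM in IVM MII, 32.2 CPM in IVO MII and 10.5 CPM in GV, and FSHR averaged 35.2 CPM in IVM MII, 4.66 CPM in IVO MII and 1.63 CPM in GV. Others of that list were lower in IVM MII than in IVO MII: HAS2 (14.3 and 39 CPM), GREM1 (13.2 and 21.5), CYP19A1 (0 and 5.53) and VCAN (1.69 and 4.68). The markers thus differ between the MII groups, in both directions, as well as against GV. Their part in the sirtuin values was not tested. In the deposited column names the GV and MII libraries come from different folders, and what that split stands for cannot be told apart from the step between GV and MII.

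The 7 genes lie on 6 chromosomes of the deposited table, whose genome build is not named. SIRT1 is at chromosome 9, bases 68061430 to 68097906 (10 exon blocks, 4214 exon bases). SIRT2 is at chromosome 19, bases 39354897 to 39380899, and SIRT6 on the same chromosome at bases 4202951 to 4211609. SIRT3 is at chromosome 14, bases 26308 to 47509, SIRT4 at chromosome 11, bases 124177558 to 124198829, SIRT5 at chromosome 4, bases 157201496 to 157249657, and SIRT7 at chromosome 16, bases 79522000 to 79528889. SIRT4 is on the plus strand and the other 6 are on the minus strand. Exons of 3 members share bases with another gene, and how reads there were counted is not given in the sources used here. SIRT5 shares 292 exon bases with NOL7 on the same strand, and NOL7 was far more abundant (52 CPM in IVM MII, 37.5 CPM in IVO MII and 71.8 CPM in GV). SIRT3 shares 250 exon bases with PSMD13, a proteasome gene that runs the opposite way, and 79 with RIC8A, and SIRT2 shares 95 with NFKBIB. PSMD13 averaged 2.83 CPM in IVM MII, 4.82 CPM in IVO MII and 48.8 CPM in GV, where SIRT3 averaged 0.613 CPM. Values of SIRT2, SIRT3 and SIRT5 are uncertain to the extent that reads from shared bases were lost or assigned to the neighbour. The same holds to the extent that reads of the neighbour were counted for the sirtuin.

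Sirtuin transcripts were rare in every library. Together the 7 genes held 245, 546 and 311 counts in the IVM MII libraries, 161 and 254 in the IVO MII libraries, and 1189 and 816 in the GV libraries, or 0.000684% to 0.00511% of a library. On the scaled levels this was 13.1, 23.1 and 11.7 CPM in IVM MII, 8.2 and 9.79 CPM in IVO MII, and 36 and 25.8 CPM in GV. Both GV libraries lay above all 5 MII libraries, and all 3 IVM MII libraries lay above both IVO MII libraries. The genes behind these sums differed between the groups, as the plot of levels by library shows.

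**Figure D1:**
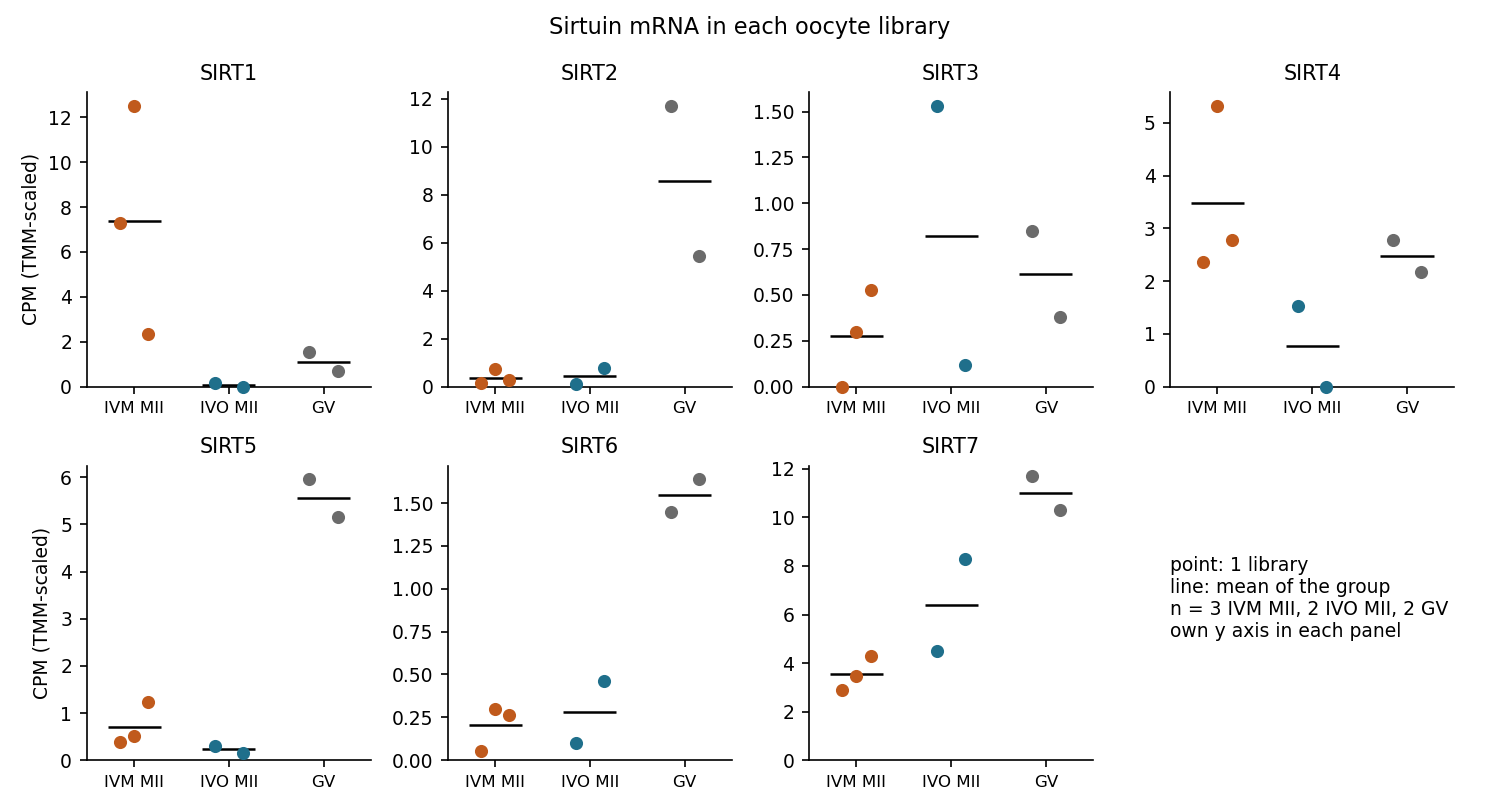
Level of each sirtuin gene in each library, in CPM scaled with TMM on the y axis (a linear scale from 0, different in each panel), for IVM MII (n = 3), IVO MII (n = 2) and GV (n = 2); points are libraries and lines are group means. SIRT2, SIRT5 and SIRT6 sit near 0 in all MII libraries and higher in GV, SIRT7 is highest in GV and lowest in IVM MII, and SIRT1 reaches 12.5 CPM in an IVM MII library while IVO MII stays at or under 0.153 CPM.

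SIRT1, the nuclear deacetylase of p53, FOXO factors and histones, was the only member whose IVM MII libraries all lay on one side of GV and whose IVO MII libraries all lay on the other. The IVM MII libraries held 136, 295 and 62 counts, which is 7.3, 12.5 and 2.33 CPM. The IVO MII libraries held 3 and 0 counts, which is 0.153 and 0 CPM. The 95% Poisson interval of the 0 counts reaches up to 3.69 counts. The GV libraries held 51 and 22 counts, which is 1.54 and 0.696 CPM. Every IVM MII library lay above both GV libraries, and both GV libraries lay above both IVO MII libraries. This order of all libraries was held by 303 of the 16374 genes tested (1.85%), a count made after the pattern of SIRT1 had been seen. From the summed counts, SIRT1 in IVM MII was 109 times its level in IVO MII (95% counting interval 37 to 529), an interval that covers counting error only. The difference did not pass the test across all genes (edgeR adjusted p = 0.0559). It passed in 6 of 16 alternatives, DESeq2 among them (adjusted p = 1.05e-05), and the adjusted p ranged up to 0.162. Leaving out IVM MII replicate 3, the lowest of its group, gave an edgeR adjusted p of 0.029.

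Against GV, SIRT1 did not pass the test in either kind of MII oocyte. In IVM MII it averaged 7.37 ± 5.07 CPM and in GV 1.12 ± 0.599 CPM (SD, n = 3 and 2), which is 2.71 on the log2 scale (SE 1.07) with an edgeR adjusted p of 0.0769. Its 3 counts in IVO MII against 73 in GV were a ratio of 0.0583 (95% counting interval 0.0118 to 0.177, edgeR adjusted p = 0.0594). With 1 library left out, the IVM MII difference passed without IVM MII replicate 3 (edgeR adjusted p = 0.0461), IVO MII replicate 1 (0.0431) or IVO MII replicate 2 (0.0488). The IVO MII difference passed without IVM MII replicate 3 (edgeR adjusted p = 0.0437) or IVO MII replicate 1 (0.0492), where the group is a single library at 0 counts. It also passed with DESeq2 in both kinds of MII oocyte (adjusted p = 0.022 in IVM MII and 0.00898 in IVO MII). The IVM MII difference passed with the newer edgeR fit (adjusted p = 0.0177) and in a fit of only the groups compared (edgeR adjusted p = 0.0423), and the IVO MII difference passed with no filter on low counts (edgeR adjusted p = 0.0402). In 16 alternatives SIRT1 kept its sign in each of the 3 comparisons. Against GV it passed in 8 of them in IVM MII and in 5 in IVO MII. With limma voom neither difference passed (adjusted p = 0.0746 in IVM MII and 0.122 in IVO MII), nor did IVO MII with the newer edgeR fit (0.11). Neither passed without IVM MII replicate 1 or 2 (edgeR adjusted p = 0.128 and 0.223 in IVM MII, 0.0772 and 0.0859 in IVO MII). The same held without either GV library.

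SIRT6, a chromatin deacetylase of the nucleus that acts at telomeres and in DNA repair, was near the limit of counting in MII oocytes. It had 1, 7 and 7 counts in IVM MII, 2 and 12 counts in IVO MII, and 48 and 52 counts in GV. In CPM these were 0.0537, 0.296 and 0.263 in IVM MII, 0.102 and 0.463 in IVO MII, and 1.45 and 1.64 in GV. All 5 MII libraries lay under both GV libraries, and the MII groups overlapped. The log2 fold change against GV was -2.88 in IVM MII (SE 1.2, edgeR adjusted p = 0.089) and -2.42 in IVO MII (SE 1.36, edgeR adjusted p = 0.209), neither of which passed. The IVM MII difference passed in 3 of 16 alternatives. These were limma voom (adjusted p = 0.0315), the newer edgeR fit (0.00967) and a fit of only the groups compared (edgeR adjusted p = 0.0466). Among those where it did not pass were DESeq2 (adjusted p = 0.0515) and edgeR with no filter on low counts (adjusted p = 0.134).

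SIRT7, a nuclear and nucleolar deacetylase tied to ribosomal RNA genes, had the highest group mean per kilobase of the sirtuins in GV and in IVO MII. In GV replicate 1, however, SIRT2 lay above it (5.04 against 4.86 CPM per kilobase). SIRT7 had 2.9, 3.47 and 4.29 CPM in IVM MII, 4.48 and 8.29 CPM in IVO MII, and 11.7 and 10.3 CPM in GV. The 3 groups did not overlap, with IVM MII lowest and GV highest. Against GV, SIRT7 fell by 1.63 on the log2 scale in IVM MII (SE 0.51, edgeR adjusted p = 0.0352). The value in IVO MII was -0.78 (SE 0.56, edgeR adjusted p = 0.325), and the value of IVM MII over IVO MII was -0.85 (SE 0.51, edgeR adjusted p = 0.37). The call in IVM MII was lost without IVM MII replicate 1 (edgeR adjusted p = 0.0851), IVM MII replicate 2 (0.0818), GV replicate 1 (0.21) or GV replicate 2 (0.15), with log2 fold changes from -1.82 to -1.52 when 1 library at a time was left out.

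SIRT2, the mainly cytosolic member, which deacetylates tubulin and, in mouse, the spindle checkpoint kinase BubR1, fell in both kinds of MII oocyte against GV. It had 3, 17 and 7 counts in IVM MII, 2 and 20 counts in IVO MII, and 386 and 172 counts in GV. In CPM these were 0.161, 0.718 and 0.263 in IVM MII, 0.102 and 0.771 in IVO MII, and 11.7 and 5.44 in GV. The lowest GV library was several times above the highest MII library. The log2 fold change was -4.46 in IVM MII (SE 1.02, edgeR adjusted p = 0.0103) and -4.25 in IVO MII (SE 1.19, edgeR adjusted p = 0.0286). The MII groups overlapped, and IVM MII over IVO MII gave -0.21 on the log2 scale (SE 1.02, edgeR adjusted p = 0.934). Its sign turned in 4 of 16 alternatives, and an SE of this size does not show that the groups were alike. The GV libraries themselves differed, and the call in IVM MII was lost without GV replicate 1 (edgeR adjusted p = 0.12), where the log2 fold change was -3.83, against -5.28 without IVM MII replicate 2. In IVO MII the log2 fold change ran from -6.34 with IVO MII replicate 2 left out to -3.47 with IVO MII replicate 1 left out, and was -3.63 without GV replicate 1. The call in IVO MII was lost without GV replicate 1 (edgeR adjusted p = 0.213), GV replicate 2 (0.0705) or IVO MII replicate 1 (0.0868).

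SIRT5, the mitochondrial member that removes succinyl, malonyl and glutaryl groups, also fell in both kinds of MII oocyte. It had 7, 12 and 33 counts in IVM MII, 6 and 4 counts in IVO MII, and 197 and 163 counts in GV. In CPM these were 0.376, 0.507 and 1.24 in IVM MII, 0.306 and 0.154 in IVO MII, and 5.96 and 5.15 in GV. No groups overlapped, with GV highest and IVO MII lowest. The log2 fold change against GV was -2.95 in IVM MII (SE 0.82, edgeR adjusted p = 0.0232) and -4.58 in IVO MII (SE 1.05, edgeR adjusted p = 0.0134). IVM MII over IVO MII was 1.63 (SE 0.92) and did not pass (edgeR adjusted p = 0.338). Without GV replicate 1 or GV replicate 2 neither call held, at edgeR adjusted p = 0.183 and 0.134 in IVM MII and 0.103 and 0.0799 in IVO MII. The IVM MII call was also lost without IVM MII replicate 1 (edgeR adjusted p = 0.0542) or replicate 2 (0.065), and without IVM MII replicate 3 the log2 fold change was -3.67.

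SIRT3 and SIRT4, the other mitochondrial members, passed in no comparison. SIRT3, the main mitochondrial deacetylase, had 0, 7 and 14 counts in IVM MII, 30 and 3 counts in IVO MII, and 28 and 12 counts in GV. In CPM these were 0, 0.296 and 0.526 in IVM MII, 1.53 and 0.116 in IVO MII, and 0.847 and 0.379 in GV. The IVO MII libraries held the highest SIRT3 level of the series and one of the lowest. Its groups overlapped in every comparison. The log2 fold changes were -1.54 for IVM MII over IVO MII (SE 1.59), -1.13 for IVM MII over GV (SE 1.58) and 0.41 for IVO MII over GV (SE 1.74), with edgeR adjusted p of 0.609, 0.601 and 0.879.

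SIRT4, which has lipoamidase and ADP-ribosyltransferase activity, had 44, 126 and 74 counts in IVM MII, 30 and 0 counts in IVO MII, and 92 and 69 counts in GV. In CPM these were 2.36, 5.32 and 2.78 in IVM MII, 1.53 and 0 in IVO MII, and 2.78 and 2.18 in GV. IVM MII overlapped GV, while both IVO MII libraries lay under all others. The 30 counts of IVO MII replicate 1 have a 95% Poisson interval of 20.2 to 42.8. That of the 0 counts of replicate 2 reaches up to 3.69, so the IVO MII libraries differed by more than counting error. Of 5090 tested genes with a mean of 0.5 to 5 CPM in GV, 146 (2.87%) likewise had 0 counts in one IVO MII library and at least 30 in the other, limits set after the values of SIRT4 had been seen. The log2 fold changes of SIRT4 were 2.21 for IVM MII over IVO MII (SE 1.39, edgeR adjusted p = 0.389), 0.49 for IVM MII over GV (SE 1.27, edgeR adjusted p = 0.786) and -1.71 for IVO MII over GV (SE 1.44, edgeR adjusted p = 0.399). Without IVO MII replicate 1 the comparisons with IVO MII passed (edgeR adjusted p = 0.0456 and 0.0177), on a single IVO MII library at 0 counts.

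Between IVM MII and IVO MII, 0 of 7 sirtuin genes passed the edgeR test, where 1.47% of the 16374 genes tested were called. At an unadjusted p under 0.05 the number was 1, SIRT1, and DESeq2 and the newer edgeR fit each called 1, also with SIRT1, while limma voom called 0. Of the 16374 genes, 3460 had an unadjusted p under 0.05, DESeq2 called 2010, the newer edgeR fit 772 and limma voom 497. The libraries did not overlap for 4 members, with SIRT1, SIRT4 and SIRT5 higher and SIRT7 lower in IVM MII, and the same held for 33.8% of all genes tested. The median log2 fold change of the 7 genes was -0.211, and that of all genes was 0.

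Between IVO MII and GV, 2 of 7 members, SIRT2 and SIRT5, passed the edgeR test and were lower, where 28.1% of all genes tested were called and 13.5% were called lower in IVO MII. Levels of 6 members lay under GV in every IVO MII library, SIRT3 being the exception, and the same held for 40.8% of all genes. The median log2 fold change was -2.42 over the members and -0.16 over all genes. Fits without a GV library, which leave 1 library in that group, called fewer members and also fewer of all genes. Without IVO MII replicate 1 the log2 fold change was -3.47 for SIRT2, -7.91 for SIRT1 and -9.05 for SIRT4. There SIRT1 and SIRT4 rest on a single IVO MII library at 0 counts. Between IVM MII and GV, 3 of 7 members, SIRT2, SIRT5 and SIRT7, passed the edgeR test and were lower, where 36.3% of all genes were called and 17.8% were called lower in IVM MII. The libraries did not overlap for 5 members, which held for 69.1% of all genes, and 4 of these were lower in IVM MII, which held for 37.5%. The median log2 fold change was -1.63 over the members and -0.099 over all genes. The 3 calls became 1 without IVM MII replicate 1 or without IVM MII replicate 2. Over all genes those fits called 4239 and 4641, against 5949 in the main fit. Without a GV library fewer members and fewer of all genes were again called. Both comparisons share the GV libraries. All 7 members passed the filter on low counts, and for SIRT2, SIRT5, SIRT6 and SIRT7 both GV libraries held more counts than any MII library.

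**Figure D2:**
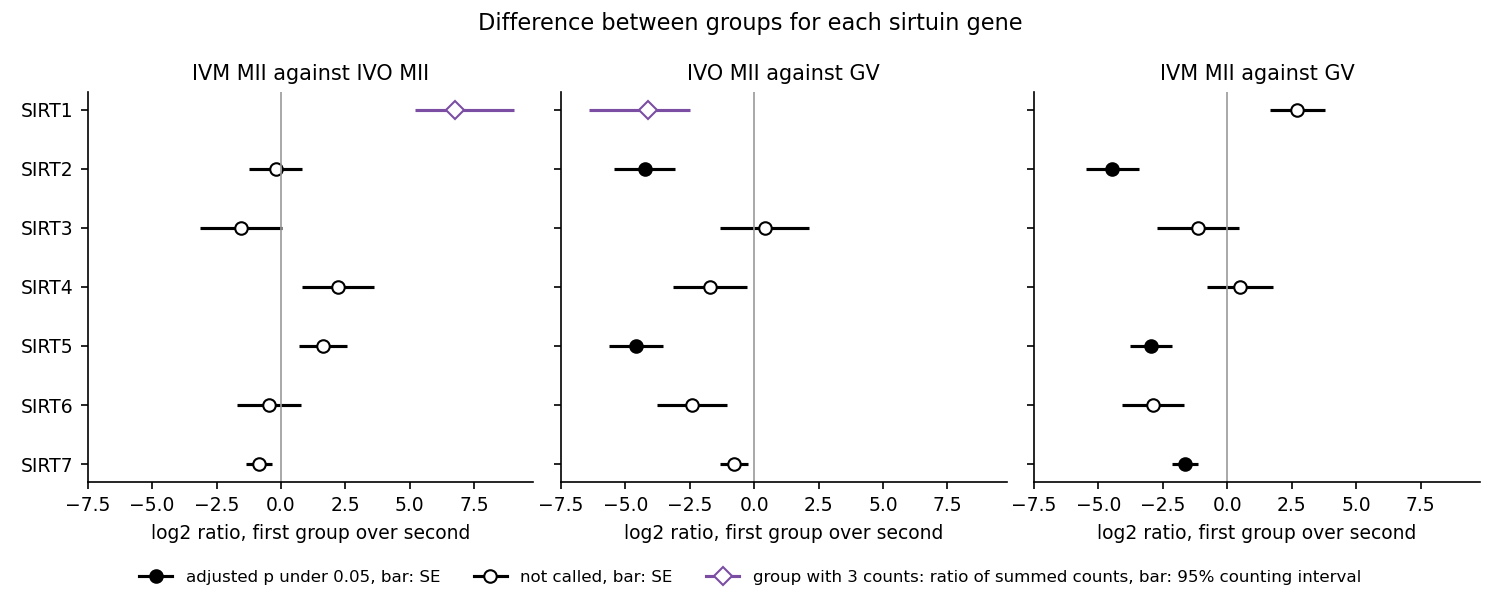
Log2 ratio of each sirtuin gene in the 3 comparisons (x axis, first group over second); circles are edgeR log2 fold changes with SE, filled at an adjusted p under 0.05, and diamonds are ratios of summed counts with their 95% counting interval, used where a group held 3 counts in all. SIRT2 and SIRT5 are filled on the negative side in both comparisons with GV, SIRT7 in IVM MII against GV alone, and no gene is filled between the MII groups.

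To compare members with one another, CPM were divided by exon length in kilobases. In GV the order was SIRT7 (4.57 ± 0.41 CPM per kilobase), SIRT2 (3.69 ± 1.9), SIRT5 (1.47 ± 0.151), SIRT4 (1.23 ± 0.211), SIRT6 (0.701 ± 0.0617), SIRT1 (0.266 ± 0.142) and SIRT3 (0.189 ± 0.102), with SDs over 2 libraries. The spreads of SIRT7 and SIRT2, of SIRT5 and SIRT4, and of SIRT1 and SIRT3 overlapped. In IVO MII, SIRT7 led at 2.65 ± 1.12 CPM per kilobase (n = 2) and the other 6 were at or under 0.379. In IVM MII, SIRT1 (1.75 ± 1.2), SIRT4 (1.73 ± 0.795) and SIRT7 (1.47 ± 0.29; n = 3) lay together within their spread, and the other 4 were at or under 0.188. By group mean, the most abundant member per kilobase exceeded 47.4% of the genes tested in IVM MII (SIRT1), 53.6% in IVO MII (SIRT7) and 59.6% in GV (SIRT7).

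The mixture of members also varied between the libraries. SIRT1 made up 40.3%, 38.4% and 12.5% of the summed CPM per kilobase in the IVM MII libraries, 1.1% and 0% in the IVO MII libraries, and 2.59% and 1.63% in the GV libraries. SIRT2 made up 1.62%, 4.03% and 2.56% in IVM MII, 1.33% and 8.2% in IVO MII, and 35.6% and 23.2% in GV. SIRT7 made up 28%, 18.7% and 40.1% in IVM MII, 56.4% and 84.7% in IVO MII, and 34.3% and 42.3% in GV. A share also moves when the other members change, so these values describe each library's mixture and carry no test.

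**Figure D3:**
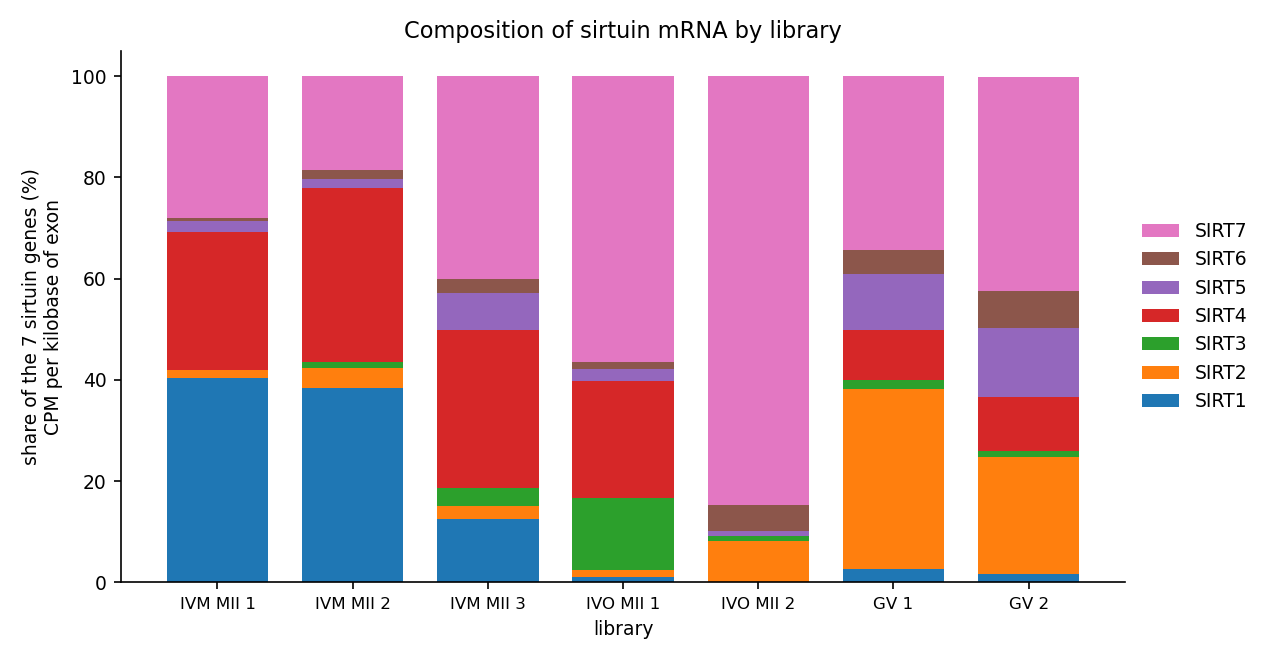
Share of each sirtuin gene (y axis, percent of the summed CPM per kilobase of exon of the 7 genes) in each library (x axis). SIRT1 holds 12.5% to 40.3% in IVM MII and at most 2.59% elsewhere, SIRT7 holds 84.7% of IVO MII replicate 2, and SIRT2 holds 23.2% and 35.6% in GV.

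Genes beside the sirtuins on the chromosome rose, fell or did not pass the test against GV. HERC4, whose nearest end lies 1857 bases from SIRT1, rose in both kinds of MII oocyte against GV, with log2 fold changes of 2.85 in IVM MII (edgeR adjusted p = 0.00696) and 2.96 in IVO MII (edgeR adjusted p = 0.00923), and had -0.11 between the MII groups. NFKBIB, which overlaps SIRT2, averaged 0.0266 CPM in IVM MII, 0 CPM in IVO MII and 1.79 CPM in GV. Like SIRT2 it passed as lower in both kinds of MII oocyte (edgeR adjusted p = 0.0164 in IVM MII and 0.0193 in IVO MII). PSMD13, which overlaps SIRT3, had log2 fold changes of -4.10 in IVM MII (edgeR adjusted p = 0.00185) and -3.33 in IVO MII (edgeR adjusted p = 0.0074). RANBP9, 7835 bases from SIRT5, rose by 2.52 in IVM MII (edgeR adjusted p = 0.002) and by 2.98 in IVO MII (edgeR adjusted p = 0.0022), the opposite direction to SIRT5. NOL7, the same-strand neighbour that shares exon bases with SIRT5, had -0.47 in IVM MII and -0.94 in IVO MII and did not pass (edgeR adjusted p = 0.265 and 0.0724). MAFG, 81 bases from SIRT7, had 0.79 in IVM MII and 1.16 in IVO MII, neither of which passed (edgeR adjusted p = 0.173 and 0.0876). PCYT2, on the other side of SIRT7 at 555 bases, averaged 0.0125 CPM in IVM MII, 0.0193 CPM in IVO MII and 0.712 CPM in GV, and passed as lower in IVM MII (edgeR adjusted p = 0.036).

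Profiles over the 7 libraries were also compared between each sirtuin and 6432 other genes with a symbol and a mean of at least 10 CPM, as the root mean square difference of log2(CPM + 1) after centring each gene on its mean. That scale understates changes of genes as rare as the sirtuins, so a close match has a smaller fold than the CPM of the sirtuin. The closest to SIRT1 were ENPP4 (difference 0.32) and RFK (0.39), where the median gene differed by 1.48. ENPP4 averaged 27.4 CPM in IVM MII, 3.77 CPM in IVO MII and 6.15 CPM in GV, and RFK averaged 150 CPM in IVM MII, 20.7 CPM in IVO MII and 34 CPM in GV. For SIRT2 the closest was PATL2 (0.206; 28 CPM in IVM MII, 37.2 CPM in IVO MII and 226 CPM in GV), and for SIRT5 it was TTI2 (0.124). SLC9B2 was closest to SIRT3 (0.191), VPS13C to SIRT4 (0.166), ADAMTS9 to SIRT6 (0.125) and CLEC16A to SIRT7 (0.104). Likeness of profile over these libraries says nothing of shared function.

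Another 7 lists, of genes around the sirtuins, were described by counts and medians. Between IVM MII and IVO MII, 0 of the 78 different genes of these lists passed the edgeR test, while 16 had an unadjusted p under 0.05, DESeq2 called 7, limma voom 2 and the newer edgeR fit 2. Over all 16374 genes edgeR called 241, 3460 had an unadjusted p under 0.05, DESeq2 called 2010, limma voom 497 and the newer edgeR fit 772. No list was tested as a set. The list medians of this comparison ran from -0.94 to 0.50. Of 20 genes listed for NAD synthesis and phosphorylation, which include NNT, NNMT and the carrier SLC25A51, 11 were tested. Against GV, 2 rose and 2 fell in IVM MII (median log2 fold change -0.72) and 1 rose and 2 fell in IVO MII (median -0.37). These shares were close to the 36.3% and 28.1% of all genes called. The calls in IVM MII were NAMPT and NNT as higher and NADSYN1 and NNMT as lower. NNT and NNMT were rare, under the 10 CPM asked of the context genes named with values. NNT was at 2.47, 2.54 and 1.69 CPM in IVM MII and 0.0605 and 0.253 CPM in GV. NNMT was at 0, 0 and 0.113 CPM in IVM MII and 3.12 and 1.68 CPM in GV. NAMPT, the rate-limiting enzyme of NAD salvage, was at 167, 160 and 207 CPM in IVM MII, 216 and 109 CPM in IVO MII, and 51.3 and 61.5 CPM in GV. All MII libraries lay above GV, with log2 fold changes of 1.66 in IVM MII (SE 0.38, edgeR adjusted p = 0.0106) and 1.53 in IVO MII (SE 0.40, edgeR adjusted p = 0.0229). Both NAMPT calls were lost without GV replicate 1 or without GV replicate 2. The IVO MII call was also lost without IVO MII replicate 1, where its value was 0.94. NADSYN1, the glutamine-dependent NAD synthetase, was at 3.68 ± 1.95 CPM in IVM MII, 3.96 ± 0.839 CPM in IVO MII and 18.2 ± 4.96 CPM in GV, with log2 fold changes of -2.31 in IVM MII and -2.20 in IVO MII (edgeR adjusted p = 0.0161 and 0.0392). Both NADSYN1 calls were lost without either GV library. The IVO MII call was also lost without IVM MII replicate 2 (edgeR adjusted p = 0.0582) or either IVO MII library.

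Of 7 tested other NAD-consuming enzymes, 3 rose and 1 fell in IVM MII and 2 rose and 1 fell in IVO MII, where 36.3% and 28.1% of all genes were called. TNKS2, a tankyrase, was at 69.4 ± 9.27 CPM in IVM MII, 46.7 ± 4.78 CPM in IVO MII and 7.57 ± 1.9 CPM in GV, log2 fold changes of 3.20 and 2.62 (edgeR adjusted p = 0.00141 and 0.00294). PARP2, a DNA damage sensor, fell by 2.30 in IVM MII (edgeR adjusted p = 0.00294) and had -0.84 in IVO MII (edgeR adjusted p = 0.163), and PARP4 rose by 1.66 in IVM MII and 1.41 in IVO MII (edgeR adjusted p = 0.0131 and 0.0369). The NAD hydrolase CD38 fell to 11.4 ± 1.46 CPM in IVO MII, against 50.2 ± 7.65 CPM in GV (-2.14, edgeR adjusted p = 0.0179), and had -0.86 in IVM MII (edgeR adjusted p = 0.166). Of 4 tested regulators of SIRT1, 1 passed in IVM MII and 0 in IVO MII, where 36.3% and 28.1% of all genes were called. The 1 was RPS19BP1, which encodes an activator of SIRT1, at 2.25 ± 2.22 CPM in IVM MII and 22.5 ± 2.75 CPM in GV (-3.32, edgeR adjusted p = 0.0227). It had -4.50 without IVM MII replicate 2, and -2.60 in IVO MII (edgeR adjusted p = 0.0908). The list medians were -2.18 in IVM MII and -1.65 in IVO MII. CCAR2 (-2.42), E2F1 (-1.93) and USP22 (-1.09) were also negative in IVM MII without passing.

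Of 16 tested substrates of mitochondrial sirtuins, 9 fell and 1 rose in IVM MII (median -2.97), where 17.8% of all genes were called lower. In IVO MII 7 fell and 1 rose (median -2.23), where 13.5% of all genes were called lower. The medians over all genes were -0.099 in IVM MII and -0.16 in IVO MII. Members that did not pass included the antioxidant enzyme SOD2, with 0.82 in IVM MII and -0.12 in IVO MII. IDH2, the mitochondrial NADP-dependent isocitrate dehydrogenase and a SIRT3 substrate, was at 1.78 ± 1.31 CPM in IVM MII and 182 ± 32.6 CPM in GV (-6.67, SE 0.79, edgeR adjusted p = 0.0014), with -7.46 without IVM MII replicate 2, and had -4.23 in IVO MII (edgeR adjusted p = 0.00743). SDHA of respiratory complex II had -4.62 in IVM MII (edgeR adjusted p = 0.00463; -5.77 without IVM MII replicate 3) and -3.90 in IVO MII (edgeR adjusted p = 0.0202). PPIF, the cyclophilin of the permeability transition pore, had -4.48 in IVM MII (edgeR adjusted p = 0.00457) and -5.55 in IVO MII (edgeR adjusted p = 0.00636). With 1 library left out its value in IVO MII ran from -7.75 (IVO MII replicate 2 out) to -4.75 (IVO MII replicate 1 out). OTC of the urea cycle had -4.91 in IVM MII and -6.71 in IVO MII, both called (edgeR adjusted p = 0.0208 and 0.0223). OTC had -5.78 in IVM MII without IVM MII replicate 2 and -5.75 in IVO MII without IVO MII replicate 2, where it no longer passed (edgeR adjusted p = 0.0786). Without IVO MII replicate 1 its IVO MII value rests on a level of 0.0386 CPM, which is 1 count. CPS1, the urea cycle enzyme that SIRT5 acts on, went the other way, at 59.1, 53.8 and 32 CPM in IVM MII, 217 and 34.7 CPM in IVO MII, and 1.45 and 3.1 CPM in GV. Its log2 fold change was 4.41 in IVM MII (edgeR adjusted p = 0.00513) and 5.79 in IVO MII (SE 0.93, edgeR adjusted p = 0.00366). The IVO MII value was 3.92 with IVO MII replicate 1 left out, 6.57 with IVO MII replicate 2 left out and 6.42 without GV replicate 2.

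Of 16 tested substrates of nuclear and cytosolic sirtuins, 5 rose and 4 fell in IVM MII and 4 rose and 3 fell in IVO MII, where 36.3% and 28.1% of all genes were called. FOXO3 rose by 2.12 in IVM MII and 1.91 in IVO MII (edgeR adjusted p = 0.00278 and 0.00626), and HIF1A rose by 1.70 and 2.01 (edgeR adjusted p = 0.00472 and 0.00455). ACSS2, the cytosolic acetyl-CoA synthetase, had -3.56 in IVM MII (edgeR adjusted p = 0.0148) and -2.72 in IVO MII (edgeR adjusted p = 0.0702). XRCC6, a subunit of the Ku DNA repair complex, had -1.15 in IVM MII (edgeR adjusted p = 0.0474) and -1.89 in IVO MII (edgeR adjusted p = 0.0155). The zinc-dependent histone deacetylases, which do not use NAD, had 1 call of 10 tested in IVM MII and 2 in IVO MII. All of these calls were higher, where 36.3% and 28.1% of all genes were called. The list medians were negative, at -0.55 in IVM MII and -0.32 in IVO MII. HDAC9 was at 47.4 ± 12.6 CPM in IVM MII, 29.5 ± 6.72 CPM in IVO MII and 6.4 ± 0.323 CPM in GV (2.89 and 2.21, edgeR adjusted p = 0.00204 and 0.00692), and HDAC3 had 1.03 in IVM MII (edgeR adjusted p = 0.133) and 1.91 in IVO MII (edgeR adjusted p = 0.0308). Of 16 tested lysine acetyltransferases 7 rose and 2 fell in IVM MII and 5 rose and 1 fell in IVO MII, where 36.3% and 28.1% of all genes were called, and the median was 0.72 in both. ELP3, the catalytic subunit of Elongator, had -2.93 in IVM MII and -2.56 in IVO MII (edgeR adjusted p = 0.00247 and 0.00851). TAF1 rose by 1.94 in IVM MII and 1.26 in IVO MII (edgeR adjusted p = 0.00591 and 0.0456), NCOA1 by 1.66 and 1.35 (0.00973 and 0.033) and EP300 by 1.37 and 1.66 (0.0129 and 0.0101). KAT6A had 0.45 in IVM MII (edgeR adjusted p = 0.372) and 1.78 in IVO MII (edgeR adjusted p = 0.0141).

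Single libraries also decided many of these calls. Of 32 pairs of a named gene and a comparison, 22 lost their call without at least 1 library, 21 of them without GV replicate 1 and 18 without GV replicate 2, against 7 without IVO MII replicate 1 and at most 4 without any other library. The 10 that kept it without each library in turn were TNKS2, ELP3, HDAC9, FOXO3, PARP2, IDH2 and SDHA in IVM MII and TNKS2, CPS1 and PPIF in IVO MII. None of these 32 values changed sign in the alternatives run.

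**Figure D4:**
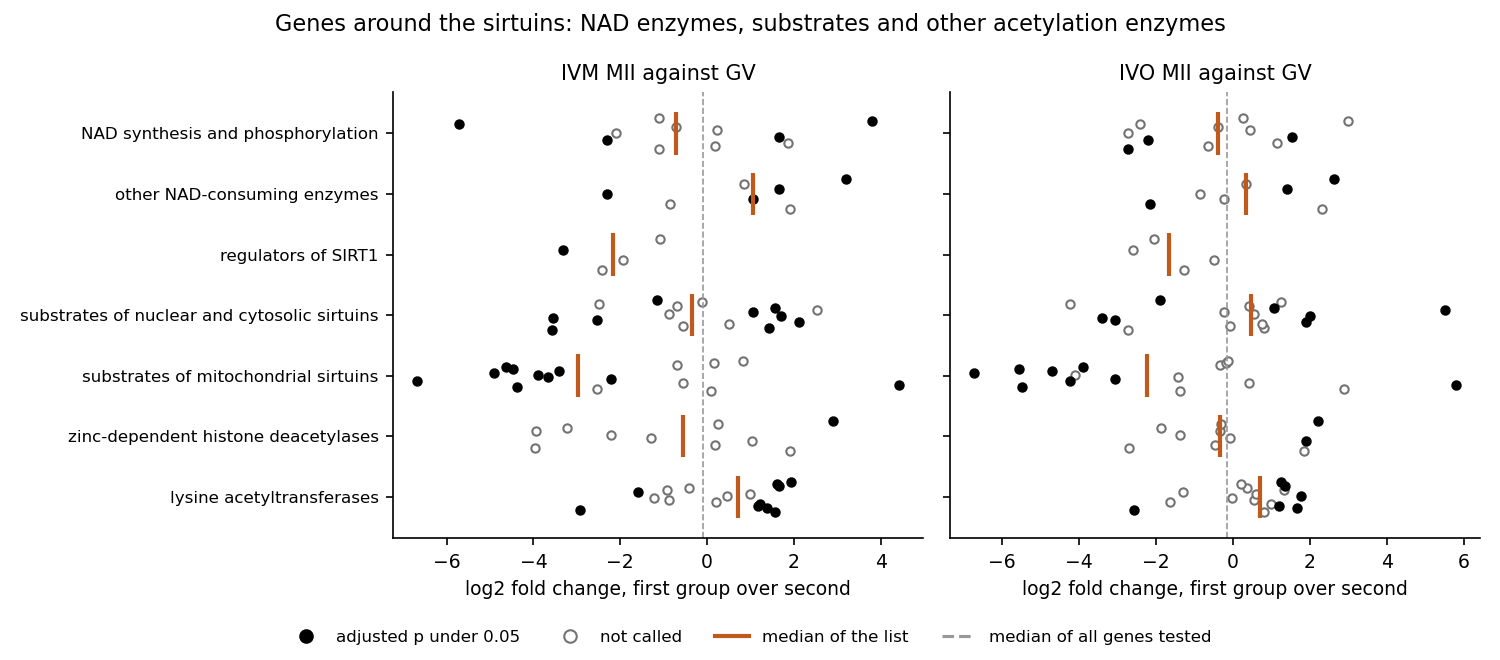
Log2 fold change against GV (x axis, first group over second) of the tested members of 7 gene lists around the sirtuins (rows), in IVM MII on the left and IVO MII on the right; each point is a gene, filled at an adjusted p under 0.05, short lines are list medians and the dashed line is the median of all genes tested. The list of mitochondrial sirtuin substrates has the lowest medians (-2.97 and -2.23), and the acetyltransferases lie at 0.72 in both.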

How the data were processed

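Poly(A) RNA of 7 oocyte libraries was reverse transcribed with template switching, amplified, tagmented and sequenced with paired ends on DNA nanoballs, per the labels' protocols. The deposited table holds unnormalized read counts for each gene, one column a library. Tools named, per the submitters' processing notes without their settings, are featureCounts 2.0.1, Bowtie2 2.4.5, Trim Galore 0.6.7, SAMtools 1.15.1 and DESeq2. Bowtie2 does not split reads across introns. For strand setting, genome build and overlapping genes, the choice is not given in the sources used here. Exon lengths are those of the deposited table.

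The table kept 28161 rows after 10 broken lines of MACF1, NEB and TTN were left out. Of 11294 rows named by locus, 5013 matched a RefSeq gene table on the T2T-MFA8v1.1 assembly, used for names only, and 721 gained a symbol. The 3 pairs of groups were compared in 1 fit of all 7 libraries with edgeR 4.0.16 (TMM, filterByExpr, glmQLFit, glmQLFTest) in R 4.3.3, two-sided, with Benjamini-Hochberg adjustment over 16374 genes and a threshold of 0.05. The fit was tested on simulated data. Alternatives used DESeq2 1.42.0, limma 3.58.1, other scalings and filters, fits of fewer libraries and a replicate block. Ratios with a group of 3 counts or fewer carry exact binomial counting intervals at 95%. Counting intervals and the floor of 3 counts leave out PCR duplication, since the labels name no molecular identifiers, and so cover counting error only.

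The sirtuin genes, 7 context lists, 4 marker lists and the tests were chosen with earlier results of these data known. Every sirtuin was named. From each context list and comparison, up to 3 called genes with the largest fold and at least 10 CPM in the higher group were named. Chromosomal neighbours and the 2 most similar profiles per sirtuin were computed by a set rule and given in part. No reference sequences were used here.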

Additional observations from a re-analysis of the deposited data

Results flagged for a closer look

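The levels of SIRT1 in the 2 kinds of MII oocyte lay on opposite sides of GV, although neither difference from GV passed (edgeR adjusted p = 0.0769 in IVM MII and 0.0594 in IVO MII). All 3 IVM MII libraries lay above GV and both IVO MII libraries lay below it, with means of 7.37 CPM in IVM MII, 0.0764 CPM in IVO MII and 1.12 CPM in GV. From the summed counts the effects differed by a ratio of 109, and the test of that difference, which is IVM MII against IVO MII, gave an edgeR adjusted p of 0.0559. It did not pass, and it rests on 3 counts in IVO MII.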

How the results depend on the processing

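Of 338 values of single sirtuin genes under the alternatives, 289 kept their direction and side of the threshold, 25 passed where they had not, 15 no longer passed and 9 turned sign, none of these 9 being a called value; the cause was not tested. SIRT2 in IVM MII over IVO MII turned to 0.05 with limma voom, 0.07 with the replicate block of the titles, 0.13 without IVM MII replicate 1 and 1.78 without IVO MII replicate 2 (-1.03 to 1.78 with 1 library left out). SIRT3 turned to 1.24 in IVM MII over IVO MII without IVO MII replicate 1 (-2.51 to 1.24), and in IVO MII over GV to -0.45 with limma voom, -2.37 without IVO MII replicate 1 and -0.07 without GV replicate 2 (-2.37 to 1.30). SIRT6 in IVM MII over IVO MII turned to 0.91 without IVO MII replicate 2 (-1.14 to 0.91). Between IVM MII and IVO MII the number of sirtuin genes called was 1 with no filter, DESeq2, the newer edgeR fit and either replicate block, and 0 to 1 with 1 library left out. Between IVO MII and GV it was 0 with the stricter filter (at least 10 CPM in 2 libraries), which left SIRT7 alone to be tested, and 0 to 3 with 1 library left out. Between IVM MII and GV it was 1 with that filter, 5 with the newer edgeR fit and in a fit of only the groups compared, and 0 to 4 with 1 library left out. Over all genes, IVM MII against IVO MII gave 731 calls with no filter, 2010 with DESeq2, 497 with limma voom, 772 with the newer edgeR fit, 54 with only the groups compared, 1238 with the replicate block of the titles, 832 with that of the column names and 0 to 1277 with 1 library left out, against 241. With 1 library left out the range was 1484 to 5517 for IVO MII against GV and 2110 to 6716 for IVM MII against GV; where that left 1 library in a group, it was assumed to vary like the others.

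The titles number the libraries of each group alike, but the column of IVO MII replicate 2 bears the number 3. By the titles, deviations of same-numbered libraries from their group means correlated at 0.21 and -0.0849 between IVM MII and IVO MII, -0.149 between IVO MII and GV, and -0.0826 and 0.0694 between IVM MII and GV, while by the column names the pair of IVM MII replicate 3 and IVO MII replicate 2 correlated at 0.271. Either way the MII groups share only 2 numbers, no label says what a number marks, and the numbers were not taken to pair libraries. With the number of the titles as a replicate block SIRT1 passed in all 3 comparisons (edgeR adjusted p = 0.0204, 0.0414 and 0.0386) and SIRT7 no longer passed in IVM MII against GV (0.0538). With the number of the column names, a replicate block added after seeing the data, SIRT1 passed in IVM MII against IVO MII and against GV (edgeR adjusted p = 0.0202 and 0.0191) and not in IVO MII against GV (0.061), and SIRT7 passed in IVM MII against GV (0.0193). Upper quartile scaling moved the median of all genes in IVM MII over IVO MII from 0 to -0.11, and DESeq2 size factors moved it in IVM MII over GV from -0.10 to -0.24. Most sirtuin values in MII libraries rest on 0 to 30 counts, and levels under 3 counts (0.0907 to 0.161 CPM) were not detectable.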
